A study of Mus musculus with 8 samples.

Results

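The glutathione and NRF2 antioxidant genes examined here are 10 genes, taken by matching the NCBI gene numbers of the deposited tables to the symbols Slc7a11, Gclc, Gclm, Gpx1, Gpx2, Gpx4, Gsr, Txnrd1, Nqo1 and Hmox1. All 10 were found among the 38920 rows of each table, and all 10 were among the 27401 rows that passed the filter on low values. RNA was measured by sequencing in gastric epithelial cells sorted from stomachs of C57BL/6 mice. The HFD group holds 4 libraries (HFD22, HFD23, HFD26 and HFD27) from mice fed a high fat diet. The ND group holds 4 libraries (ND15.17.18, ND16, ND19 and ND20), which the series describes as control mice. The sources used here give neither the composition and duration of the diets, nor age or sex, nor the markers used for the sort. The title of ND15.17.18 lists 3 numbers and may stand for pooled animals, which the labels do not state.

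Glutathione is a small thiol peptide that keeps the cell interior reduced. Cystine enters the cell through a transporter and supplies the cysteine from which the peptide is built, peroxidases spend glutathione to remove hydrogen peroxide and lipid peroxides, and a reductase restores it with NADPH. NRF2, encoded by Nfe2l2, is a transcription factor held in check by KEAP1 and released by oxidants and electrophiles. With small MAF proteins it binds antioxidant response elements near most of these genes. In the stomach and intestine the epithelial peroxidase Gpx2 is a known part of this defence.

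None of the 10 genes passed the test of HFD against ND, set by the spread between libraries and adjusted over all rows (limma, Benjamini-Hochberg, threshold 0.05). Over all rows 0.0109% were called, 3 in number. On the deposited scale described below, where 0.0584% of rows were called, no member passed either. Differences ran from -0.89 for Slc7a11 to 0.82 for Gpx1 on the log2 scale, 3 of 10 were positive against 59.9% of all tested rows, and their median was -0.20 against 0.12. Gpx1 on the higher side, and Slc7a11 and Nqo1 on the lower, had an unadjusted limma p under 0.05, as did 10.5% of all rows (6.43% higher and 4.09% lower). No member had every HFD library above every ND library, which 4.72% of rows did, and Slc7a11 had every HFD library below, which 3.12% did. By sign alone, the 3 peroxidases had the positive differences. The genes of cystine uptake, synthesis, reduction, quinone reduction and heme breakdown had the negative ones. Several of these signs are not firm, and a split by function was not tested. Gclc differed by -0.07 ± 0.13 (SE), and without both ND15.17.18 and HFD23 Gpx2 differed by -0.003 and Gpx4 by 0.071.

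These values are log2(value + 1) after median-ratio scaling, which divides each library by its typical ratio to the mean library. The authors' deposited values share a common total. On that scale the median row was 0.90 higher in HFD, and 9 of the 10 genes had a positive difference, as did 89.9% of all rows. The sign of a small difference therefore depends on the scale, and each difference below is relative to the typical row unless the deposited scale is named. ND15.17.18 had the smallest scaling factor (0.176), and its 20 most abundant rows took 85.8% of its total, against 27.8% to 59.1% in the other 7 libraries. HFD23 was the least like the others, with a median Spearman correlation of 0.892 against 0.919 to 0.968. Depth, estimated from the step between the most frequent low values, ran from 16.4 M reads in ND19 to 63.2 M reads in ND20.

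Markers of the gastric gland were abundant in both groups. The mean level of parietal cell markers was 12.02 to 12.49 in HFD and 11.89 to 12.46 in ND, and that of surface pit cell markers 15.47 to 15.86 and 15.35 to 16.04. No marker list passed after adjustment. A list at the smallest p that the 70 divisions allow could not pass alone, so missing the threshold does not show that the groups were alike. All 6 smooth muscle markers had a higher mean in HFD. Their mean level by library did not overlap between groups, at 8.64 to 9.23 against 5.66 to 8.07, with summed linear values of 3042 to 4820 against 488 to 2012 (exact permutation p = 0.0286, adjusted p = 0.20 over 14 marker lists, the smallest p the 70 divisions allow). Chief cell markers, 6 of 6 higher, stood at 11.67 to 12.22 against 10.60 to 11.27, with the same exact permutation p and sums of 2437000 to 3180000 against 1229000 to 2652000. Forestomach squamous markers, also 6 of 6 higher, overlapped between groups, at 8.04 to 9.76 against 4.83 to 8.41 (exact permutation p = 0.0857) with sums of 2655 to 6846 against 209 to 2998. None of the markers of these last 3 kinds of cell was listed at 0 in any library. The part of these cells in the differences below was not tested, and in bulk RNA a change in the number of cells cannot be told apart from a change in RNA per cell.

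**Figure D1:**
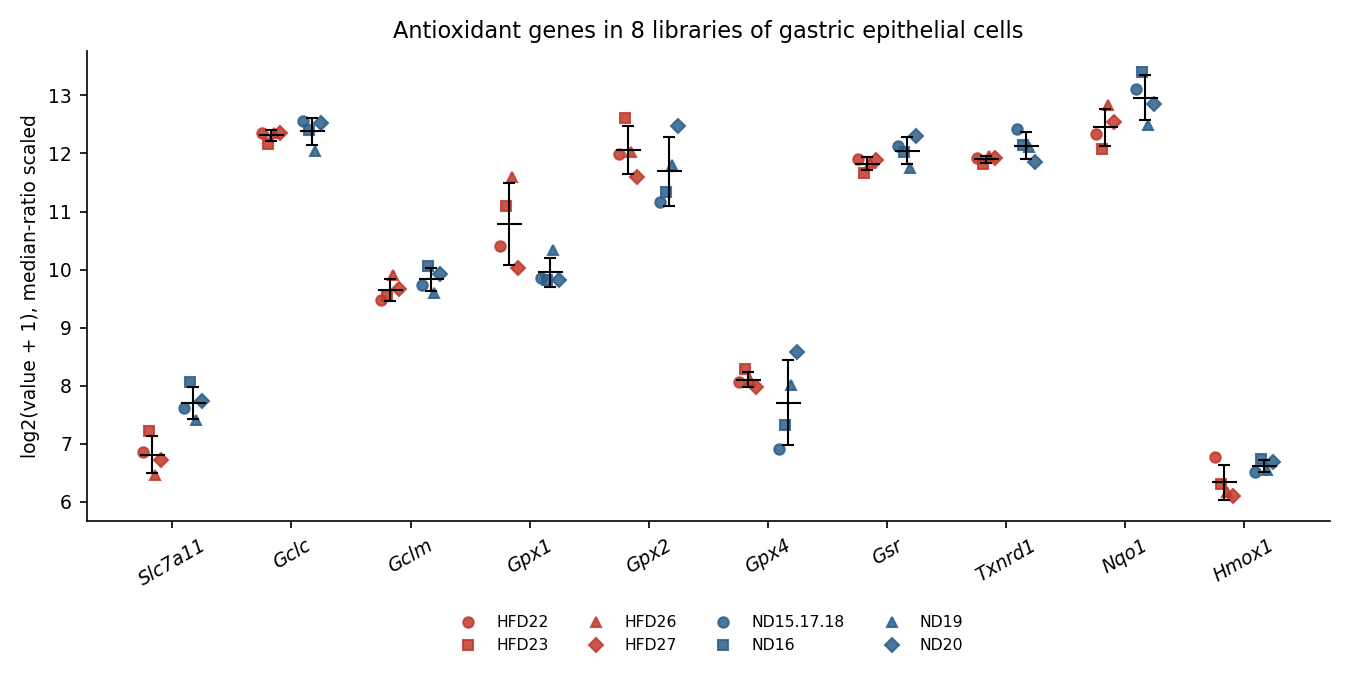
Levels of the 10 genes in each library, as log2(value + 1) after median-ratio scaling, with HFD in red and ND in blue, 1 marker shape per library, and black bars for the mean and SD of 4 libraries. Slc7a11 is the gene whose groups do not overlap, at 6.46 to 7.22 in HFD and 7.41 to 8.06 in ND, and the 3 peroxidases Gpx1, Gpx2 and Gpx4 are the genes with the higher mean in HFD.

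Slc7a11 (gene 26570, chromosome 3, 50364936 to 50499087 in GRCm38, the assembly of mm10) encodes xCT, the light chain of the exchanger that brings in cystine and lets out glutamate. It stood at 6.85, 7.22, 6.46 and 6.72 in HFD22, HFD23, HFD26 and HFD27, and at 7.61, 8.06, 7.41 and 7.74 in ND15.17.18, ND16, ND19 and ND20. Every HFD library lay below every ND library. The difference was -0.89 ± 0.24 (SE, log2, n = 4 each), with a 95% interval of -1.42 to -0.36, or 1.86-fold lower in HFD. It missed the threshold (limma adjusted p = 0.26). Of all tested rows, 7.3% had a difference this low or lower. On the deposited scale the groups overlapped and the difference was -0.04 ± 0.76 (SE). The lowest Slc7a11 value corresponds to about 49 reads by the estimated step, in ND15.17.18.

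Sequence near a transcript start of Slc7a11 is shown because this is the gene of the set whose groups stood apart. The RefSeq promoter table lists 1 start for it, which lies inside the gene span given above and not at its outer end, so the window is not upstream of the whole gene. It holds a pair of copies of TGATGCAA, the core of the amino acid response element bound by the stress factor ATF4, facing each other and starting 66 and 47 bases before that start. The window is chr3:50443633-50443699 (GRCm38.p6, minus strand, RefSeq), printed 5′ to 3′ in the direction of the gene, with capitals for the matches on either strand.
Slc7a11: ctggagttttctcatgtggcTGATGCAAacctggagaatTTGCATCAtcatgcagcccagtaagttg
This motif was chosen after the values had been seen, and 0.9% of 32851 promoters of the same length hold it. Over tested genes with a promoter listed, the median difference was 0.1 for the 136 with the motif and 0.11 for the 15908 without it. A match is a description of letters and not evidence of binding. Matches were listed only for the members and for the pathway genes named by the rule given with the processing. Of the latter Chac1, which encodes an enzyme that breaks glutathione down, also holds this motif. Its difference was 0.73 ± 0.41 (SE, limma adjusted p = 0.56). The part of ATF4 in these differences was not tested. The Chac1 value rested largely on HFD22, at 7.07 against 5.66 to 5.85 in the other HFD libraries, and was 0.398 without it.

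Glutathione itself is made in steps that begin with glutamate-cysteine ligase, whose catalytic subunit is Gclc and whose modifier subunit is Gclm. Gclc (gene 14629, chromosome 9, 77754535 to 77794489) was level between groups, at 12.16 to 12.36 in HFD and 12.05 to 12.55 in ND. Its difference was -0.07 ± 0.13 (SE), with a 95% interval of -0.36 to 0.21, and it ran from -0.185 without ND19 to -0.018 without ND15.17.18. Gclm (gene 14630, chromosome 3, 122245487 to 122267215) ran from 9.48 to 9.91 in HFD and from 9.60 to 10.06 in ND, a difference of -0.18 ± 0.14 (SE) with an interval of -0.50 to 0.15, and -0.1 without ND16. Neither passed (limma adjusted p = 0.84 and 0.67), and the groups overlapped for both. The ligase subunits thus lay closer to 0 than the transporter that feeds them, though the difference between these genes was not tested.

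The 3 glutathione peroxidases carry selenocysteine at the active site. Gpx1 (gene 14775, chromosome 9, 108339080 to 108340342), the widespread cytosolic form, stood at 10.41, 11.09, 11.60 and 10.02 in HFD22, HFD23, HFD26 and HFD27, and at 9.86, 9.82, 10.33 and 9.82 in ND15.17.18, ND16, ND19 and ND20. HFD26 and HFD23 were high, HFD27 lay inside the ND range, and ND19 was the highest ND library. The difference was 0.82 ± 0.31 (SE), with an interval of 0.11 to 1.53, or 1.76-fold (limma adjusted p = 0.41), and it became 0.545 without HFD26, which moves it by over 1.5 times. The SD was 0.70 within HFD and 0.25 within ND.

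Gpx2 (gene 14776, chromosome 12, 76792335 to 76795554), the gastrointestinal form, stood at 11.99, 12.61, 12.02 and 11.60 in HFD22, HFD23, HFD26 and HFD27, and at 11.16, 11.33, 11.80 and 12.48 in ND15.17.18, ND16, ND19 and ND20. Within ND the spread between ND15.17.18 and ND20 was larger than the difference between groups, which was 0.36 ± 0.31 (SE, interval -0.33 to 1.05, limma adjusted p = 0.68). The difference was 0.176 without HFD23, 0.183 without ND15.17.18, 0.623 without ND20 and -0.003 without both ND15.17.18 and HFD23.

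Gpx4 (gene 625249, chromosome 10, 80047166 to 80056439), which removes peroxides from membrane lipids and restrains ferroptosis, stood at 8.07, 8.28, 8.10 and 7.97 in HFD22, HFD23, HFD26 and HFD27. In ND15.17.18, ND16, ND19 and ND20 it stood at 6.91, 7.33, 8.02 and 8.58. The HFD libraries were close together (SD 0.13) and lay inside the wide ND range (SD 0.74). The difference was 0.40 ± 0.33 (SE, interval -0.34 to 1.13, limma adjusted p = 0.67). It was 0.13 without ND15.17.18, 0.686 without ND20 and 0.071 without both ND15.17.18 and HFD23.

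The row of Gpx4 may share reads with a pseudogene. Gpx4-ps2, a pseudogene that RefSeq places elsewhere on chromosome 10, had higher values than Gpx4 in all 8 libraries, at 11.12 to 11.50 in HFD and 10.27 to 11.39 in ND, while Gpx4-ps1 was listed at 0 throughout. How the authors assigned reads that fit both is not given in the sources used here, and sharing was not tested. With the rows of Gpx4 and its pseudogenes summed, the levels were 11.31 to 11.62 in HFD and 10.40 to 11.52 in ND, and the difference was 0.43 ± 0.22 (SE, limma adjusted p = 0.52). Gpx2-ps1 stood at 7.98 to 8.37 in HFD and 7.31 to 8.07 in ND, and adding it to Gpx2 gave 0.37 ± 0.28 (SE, limma adjusted p = 0.65).

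The reductases return the spent carriers to use. Gsr (gene 14782, chromosome 8, 33653238 to 33698162), glutathione reductase, ran from 11.66 to 11.91 in HFD and from 11.75 to 12.30 in ND, a difference of -0.23 ± 0.13 (SE, interval -0.52 to 0.06, limma adjusted p = 0.56). Txnrd1 (gene 50493, chromosome 10, 82833951 to 82897724), the cytosolic thioredoxin reductase and another selenoprotein, ran from 11.81 to 11.95 in HFD and from 11.86 to 12.42 in ND. Its difference was -0.24 ± 0.12 (SE, interval -0.51 to 0.04, limma adjusted p = 0.53). In both genes 3 of the 4 ND libraries lay above every HFD library, and the fourth, ND19 for Gsr and ND20 for Txnrd1, lay inside the HFD range. The Txnrd1 difference was -0.141 without ND15.17.18, and the Gsr difference -0.142 without ND20. In the RefSeq annotation Eid3 lies within the span of Txnrd1, and a snoRNA gene and a pseudogene lie within that of Gsr, so reads there may be shared.

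Nqo1 (gene 18104, chromosome 8, 107388225 to 107403205), the quinone reductase used as a standard readout of NRF2, stood at 12.33, 12.08, 12.84 and 12.54 in HFD22, HFD23, HFD26 and HFD27, and at 13.11, 13.40, 12.49 and 12.85 in ND15.17.18, ND16, ND19 and ND20. ND16 was the highest library and HFD23 the lowest, and the groups overlapped between 12.49 and 12.84. The difference was -0.51 ± 0.21 (SE, interval -0.99 to -0.03), or 1.43-fold lower in HFD, and it did not pass (limma adjusted p = 0.45). As deposited it was 0.35 ± 0.75 (SE).

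Hmox1 (gene 15368, chromosome 8, 75093618 to 75100593), the inducible heme oxygenase, stood at 6.77, 6.30, 6.17 and 6.10 in HFD22, HFD23, HFD26 and HFD27, and at 6.51, 6.73, 6.54 and 6.69 in ND15.17.18, ND16, ND19 and ND20. HFD22 lay above every ND library and the other 3 HFD libraries lay below every ND library. The difference was -0.29 ± 0.26 (SE, interval -0.86 to 0.29, limma adjusted p = 0.70), and -0.43 without HFD22. The lowest value rests on about 23 reads. Macrophages also express Hmox1. Of 10 macrophage markers 7 had a positive difference, their mean level was 3.24 to 4.79 in HFD and 2.97 to 4.18 in ND, and their summed linear values were 246 to 421 and 119 to 478. Adgre1, C1qa, C1qc and Lyz2 were listed at 0 in at least 1 library.

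**Figure D2:**
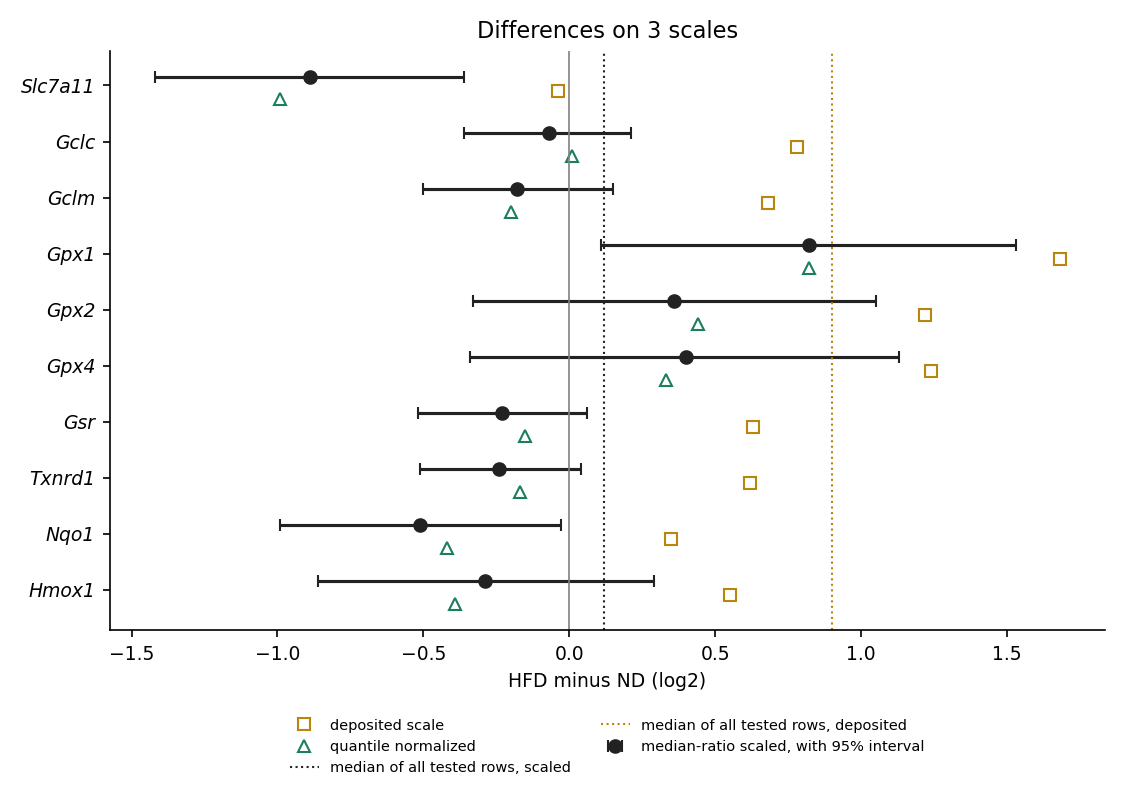
Difference between HFD and ND (log2, x axis) for each of the 10 genes, with filled circles and 95% intervals for the median-ratio scale, open squares for the deposited scale and open triangles for quantile normalization. Dotted lines mark the median of all tested rows, at 0.12 after scaling and 0.90 as deposited, and 9 of the 10 squares lie above 0 while 7 of the 10 circles lie below it.

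In a comparison within each library a factor common to that library cancels, but the result then depends on the genes taken as reference. The log2 value of each gene was set against the mean of the 10 genes in the same library, a measure chosen after the levels had been seen. On this measure Slc7a11 stood at -3.37, -3.06, -3.88 and -3.37 in HFD22, HFD23, HFD26 and HFD27, and at -2.59, -2.28, -2.80 and -2.74 in ND15.17.18, ND16, ND19 and ND20. The groups did not overlap, and the means were -3.42 ± 0.34 and -2.60 ± 0.23 (SD, n = 4 each). Of 19761 rows above 0 in all 8 libraries, 1.34% lay lower in every HFD than in every ND library when measured the same way. On the median-ratio scale 3.12% of 27401 rows did. The reference holds Slc7a11 itself, and the members had a median difference of -0.20 against 0.12 for all rows. The same values underlie both measures, so this is not a separate result. The groups overlapped for the other 9 genes. Gpx1 stood 0.90 higher in HFD on average, at 0.56 ± 0.60 against -0.34 ± 0.33 (SD, n = 4 each), and Gclc at 2.09 ± 0.17 against 2.08 ± 0.21. Gpx4 differed by 0.48, Gpx2 by 0.44 and Nqo1 by -0.43.

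**Figure D3:**
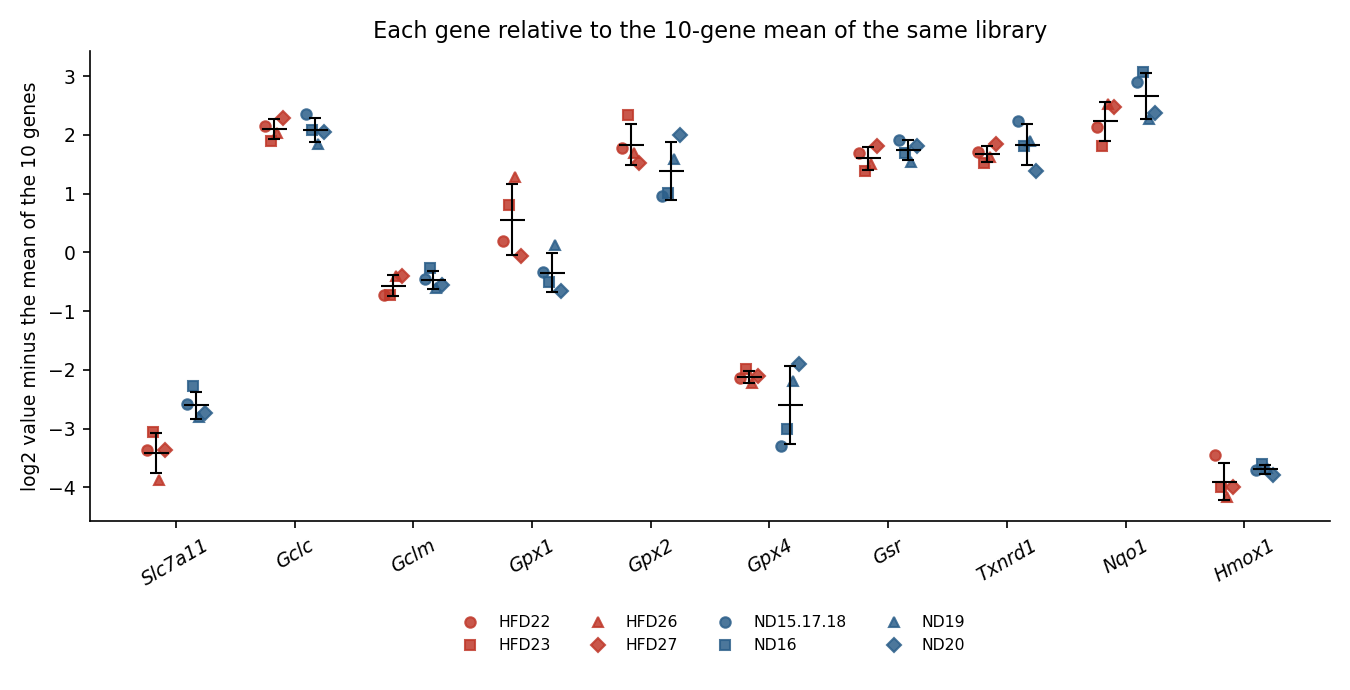
Each gene's log2 value minus the mean of the 10 genes in the same library, from the deposited values with no scaling, with HFD in red, ND in blue and black bars for the mean and SD of 4 libraries. Slc7a11 is again the gene whose groups are apart, at -3.88 to -3.06 in HFD and -2.80 to -2.28 in ND, while Gclc lies at the same mean in both groups.

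Differences between the groups moved with the length of the gene. Among 12116 genes with a symbol, a mean of at least 6 and a known exon length (87.5% of such genes), the median difference was 0.37 for exon lengths under 1000 bases, 0.20 from 1000 to below 2000, 0.08 from 2000 to below 4000 and -0.07 at 4000 and over. Without ND15.17.18 these medians were 0.26, 0.13, 0.05 and -0.04. Gpx1, Gpx2 and Gpx4 have 1072, 1067 and 1272 exon bases, and Slc7a11, Gclm and Txnrd1 have 9848, 5589 and 4074. Among genes of the same length class, 94.7% had a difference at or below that of Gpx1, 75% at or below that of Gpx4 and 70.9% at or below that of Gpx2. For Slc7a11 the share was 2.3%, and for Nqo1 and Hmox1, in the same length class as the peroxidases, 3.4% and 7.0%. The class of Slc7a11, 4000 bases and over, has no upper limit, so its share is not one among genes of its own length. Gclm, Txnrd1, Gclc and Gsr lay at 35.2%, 27.8%, 28.7% and 14.9%. The part of length in the members' differences was not tested.

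**Figure D4:**
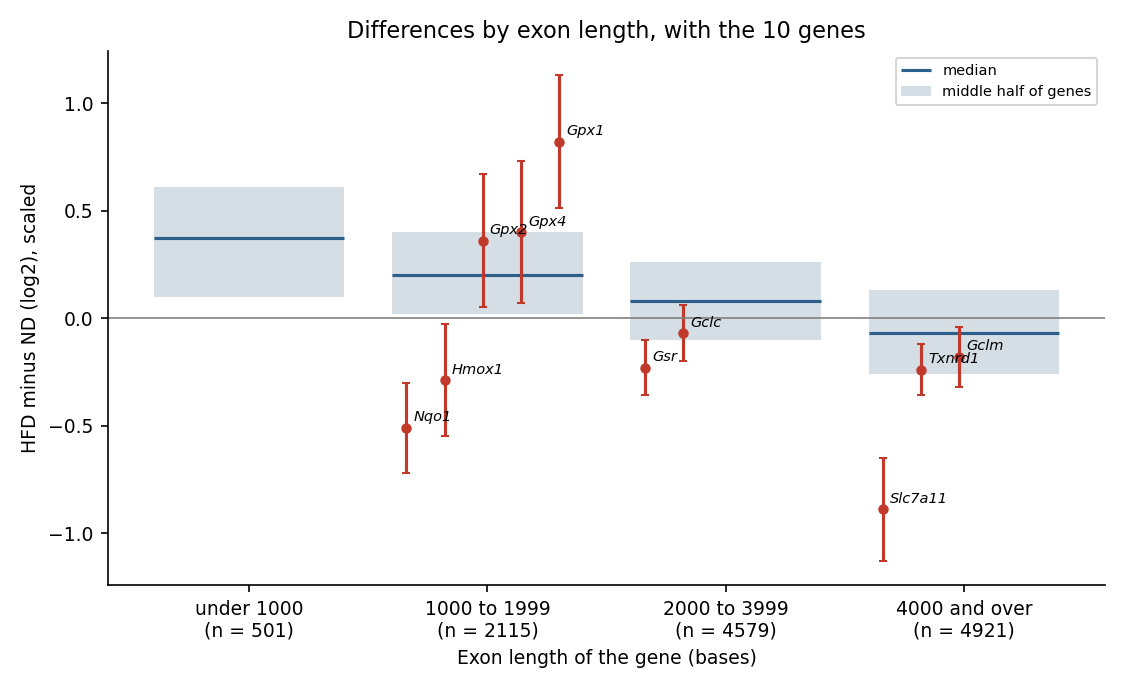
Difference between HFD and ND (log2, median-ratio scale) by exon length class, with boxes for the middle of the distribution from lower to upper quartile, blue lines for the median, and red points with SE bars for the 10 genes. The class medians run from 0.37 for the shortest class to -0.07 for the longest, and Gpx1 lies above the box of its class while Nqo1, Hmox1, Gsr and Slc7a11 lie below theirs.

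The wider pathway was described with 9 lists that hold 131 genes, 129 of them tested. The difference was above 0 for 84 of these 129, a larger share than the 59.9% of all rows. The median was 0.11 (0.12 for all rows), and none passed the adjusted threshold (limma). At an unadjusted limma p under 0.05, 14 of the 129 were higher and 11 lower. Both are larger shares than the 6.43% and 4.09% of all rows, and these differences in share were not tested. Differences between lists were not tested. Of 10 peroxiredoxins, superoxide dismutases and catalase 9 were positive (median 0.26), and of 16 genes of the selenoprotein synthesis list 13 (median 0.22). Of 7 glutathione peroxidases 6 were positive (median 0.61). That median is the value of Gpx7 (0.61 ± 0.53 SE), which stood at 7.62 in HFD23 and at 5.59 to 5.98 in the other HFD libraries. The lowest Gpx7 value rests on about 8 reads, and Gpx5 of the same list was at 0 in ND15.17.18. Of 13 genes of NRF2 and its regulators 5 were positive (median -0.12), and of 9 genes of cystine uptake and glutathione synthesis 4 (median -0.07). The 25 glutathione transferases had a median of 0.11 with 17 positive, the 12 reductases and carriers 0.02 with 8, the 27 other NRF2 targets 0.02 with 14, and the 10 genes of glutathione breakdown 0.22 with 8. As deposited the median of every list was positive.

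The groups overlapped for the transcription factor itself. Nfe2l2 was at 13.52 ± 0.17 in HFD and 13.57 ± 0.14 in ND (SD, n = 4 each), a difference of -0.04 ± 0.12 (SE). Keap1, its inhibitor, differed by 0.25 ± 0.14 and Bach1, a repressor at the same elements, by 0.03 ± 0.10 (SE). Mafk, which encodes a small MAF partner that dimerizes with NRF2 or BACH1, had the smallest p of all the pathway genes. It stood at 9.47, 9.54, 9.37 and 9.59 in HFD22, HFD23, HFD26 and HFD27, and at 10.21, 9.94, 10.57 and 10.38 in ND15.17.18, ND16, ND19 and ND20, so every HFD library was below every ND library. The difference was -0.78 ± 0.15 (SE, limma adjusted p = 0.16), and 0.08 as deposited. Gsk3b, a kinase that marks NRF2 for destruction, was also below ND in every HFD library, with a difference of -0.35 ± 0.11 (SE, limma adjusted p = 0.30).

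The core of the antioxidant response element, TGACNNNGC, was searched for on both strands near transcript starts, and among the members it was found for Gclm and for 1 of the 3 starts listed for Txnrd1. Promoters of 250 bases before and 50 after the start were in the RefSeq table for 7 of the 10 genes, 12 in all, and 12.4% of all 32851 promoters hold the motif. The windows are shown so that the element can be compared between an enzyme of synthesis, a reductase and the factor itself. The Txnrd1 start in question lies inside the gene span given above. The windows are chr3:122245407-122245447 (plus strand), chr10:82859098-82859138 (plus strand) and chr2:75704879-75704913 (minus strand) in GRCm38.p6, in the direction of each gene, with capitals for the match. In Gclm and Txnrd1 the motif reads on the opposite strand.
Gclm: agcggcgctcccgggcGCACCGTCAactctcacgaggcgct
Txnrd1: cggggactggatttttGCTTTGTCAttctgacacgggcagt
Nfe2l2: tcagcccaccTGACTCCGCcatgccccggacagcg
These genes had differences of -0.18, -0.24 and -0.04. Of the other pathway genes named by the rule given with the processing, Mafk, Ugdh and Gstm5 also hold the motif, with differences of -0.78, -0.43 and 0.60. For these genes only matches that end before the start were listed, whereas the share of 12.4% counts whole promoters. Matches in the remaining genes named here were not listed. Over all tested genes with a promoter in the table the median difference was 0.10 with the motif and 0.11 without it. Elements farther from the start, where many NRF2 sites lie, are outside these windows.

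Among the reductases and carriers Txnip and Txn1 had the smallest p. The glutaredoxin genes Glrx, Glrx2 and Glrx3 differed by -0.01, 0.03 and 0.00. Glrx5, another glutaredoxin gene, differed by 0.51 ± 0.18 (SE, limma adjusted p = 0.37), with overlap between the groups. Txnip, which binds and restrains thioredoxin, was above ND in every HFD library, at 13.89 ± 0.21 against 13.15 ± 0.33 (SD, n = 4 each), a difference of 0.74 ± 0.17 (SE, limma adjusted p = 0.22). Txn1, thioredoxin, was at 8.49, 9.80, 9.54 and 8.30 in HFD22, HFD23, HFD26 and HFD27 and at 7.83 to 8.23 in ND, also without overlap (0.99 ± 0.33 SE, limma adjusted p = 0.34). HFD23 and HFD26 were the high libraries for Txn1, as they were for Gpx1. Prdx6 and Prdx4, peroxiredoxins of the cytosol and the endoplasmic reticulum, stood 0.53 ± 0.11 and 0.71 ± 0.18 above ND (SE), with limma adjusted p = 0.20 and 0.25. The HFD values of Prdx6 were all above ND, at 10.36 to 10.66 against 9.78 to 10.05. The shortest of these genes, Prdx4 and Txn1, have 990 and 1051 exon bases, in or next to the length class with the highest median difference.

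**Figure D5:**
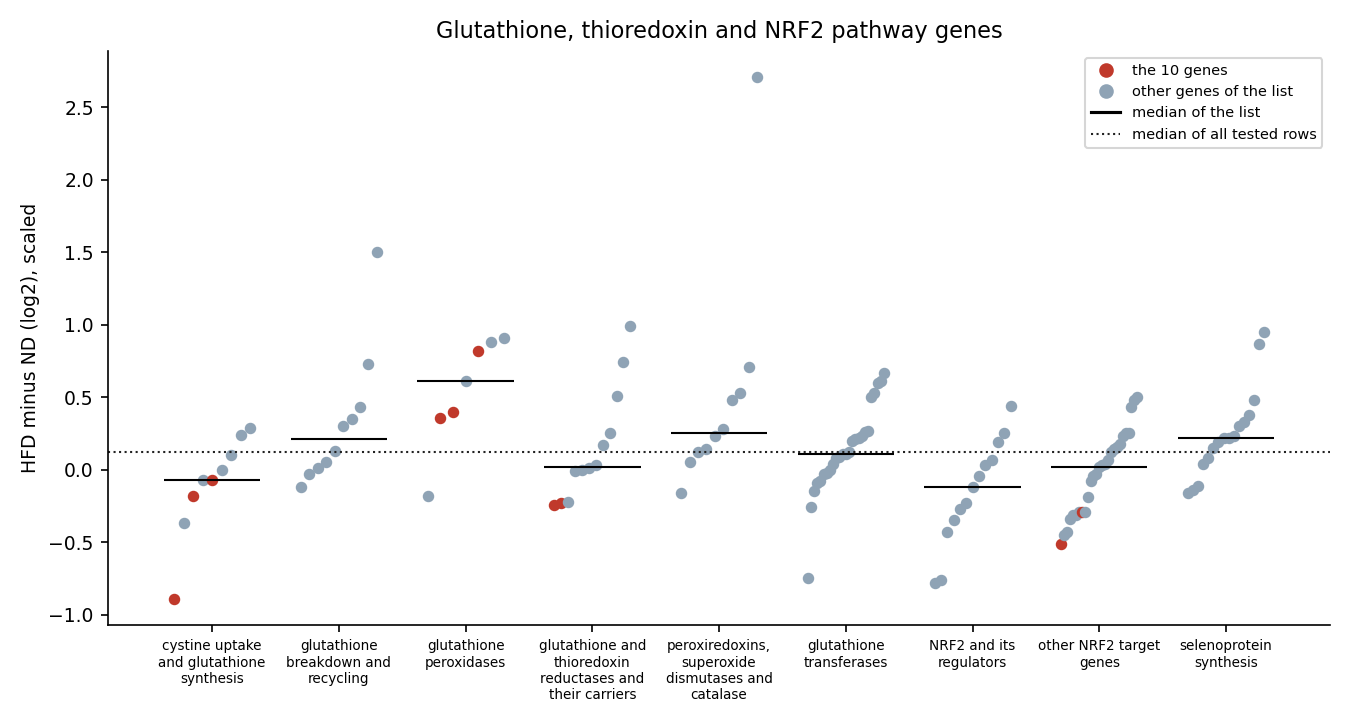
Difference between HFD and ND (log2, median-ratio scale) of every tested gene in 9 pathway lists, with the 10 genes in red, other genes in grey, black lines for list medians and a dotted line for the median of all tested rows (0.12). None of the points passed the adjusted threshold, and the list medians run from -0.12 for NRF2 and its regulators to 0.61 for the glutathione peroxidases. The peroxidase median is the value of Gpx7, whose lowest library rests on about 8 reads.

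In the selenoprotein list Sepsecs, Secisbp2 and Sephs2, which act in making or inserting selenocysteine, had differences of -0.16, -0.14 and -0.11. They were the only 3 negative genes of the 16. Pstk, another gene with such a role, differed by 0.08, and Sephs1 of the same list by 0.04. Trnau1ap differed by 0.87 ± 0.34 (SE, limma adjusted p = 0.42), with overlap between the groups. It stood at 9.37 in HFD23, against 7.63 to 8.18 in the other HFD libraries and 7.14 to 7.77 in ND. Eefsec, the elongation factor that delivers selenocysteine, was above ND in every HFD library, by 0.48 ± 0.14 (SE, limma adjusted p = 0.29), and so was Msrb1, a selenoprotein that repairs oxidized methionine, by 0.95 ± 0.29 (SE, limma adjusted p = 0.30). The Msrb1 difference was 0.56 without ND15.17.18 and HFD23. Among glutathione transferases Gstz1 and Gstm5 were above ND in every HFD library, by 0.61 ± 0.20 and 0.60 ± 0.22 (SE, limma adjusted p = 0.33 and 0.38). Gpx8, an endoplasmic reticulum peroxidase, was at 6.75 to 7.08 in HFD and 5.03 to 7.37 in ND (0.88 ± 0.47 SE, limma adjusted p = 0.54). Its difference was 0.549 without ND15.17.18 and 1.33 without ND19.

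Lower values were seen in a few NRF2 targets and in a second amino acid transporter, Slc1a4. Of other transporters in the list that holds Slc7a11, Slc3a2 differed by -0.07 ± 0.13 and Slc1a5 by 0.29 ± 0.18 (SE), both with overlap. Slc1a4, a carrier of neutral amino acids that include cysteine, was at 8.74 to 8.89 in HFD and 8.92 to 9.35 in ND, below ND in every HFD library (-0.37 ± 0.13 SE, limma adjusted p = 0.37). Abcc1, an exporter of glutathione conjugates, was also below ND in every HFD library, with a difference of -0.29 ± 0.11 (SE, limma adjusted p = 0.41). Ugdh, which makes UDP-glucuronate for conjugation, differed by -0.43 ± 0.17 (SE, limma adjusted p = 0.42) with overlap. Ggt5 of the breakdown list was listed at 0 in ND15.17.18 and its difference of 1.5 ± 1.01 (SE) did not pass (limma adjusted p = 0.61). It was 0.563 without that library.

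Genes with the profile most like that of Slc7a11 were sought among 13827 genes above 0 in all 8 libraries with a mean of at least 6, by the root mean square difference of the row-centred log2 levels over the 8 libraries. The nearest were Camsap3, a microtubule minus-end protein (0.183), the epithelial keratin Krt80 (0.196) and Rasgef1b, a guanine nucleotide exchange factor (0.197). Their differences between groups were -0.72 ± 0.15, -0.69 ± 0.21 and -0.77 ± 0.16 (SE, limma adjusted p = 0.20, 0.30 and 0.20). For Hmox1 the nearest were Slc6a9, a glycine transporter (0.099), Lrrc75a (0.129) and Fam117b (0.134). For Gpx2 they were Gm14164 (0.097), Gm13199 (0.13) and Gm7476 (0.137). Being chosen for likeness over these libraries, the differences of these genes carry no separate evidence.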

How the data were processed

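Sorted gastric epithelial cells gave total RNA that was freed of ribosomal RNA and made into Ion Total RNA-Seq libraries, per the labels' protocols. The submitters' processing notes name mm10 and bedtools 2.17.0 with no role. The aligner, the annotation and the normalization were not given in the sources used here. The authors' deposited values, 1 table of 38920 rows per library, are log2 values floored at 0 whose antilogs sum to about 36.88 M in every library (a value of 0 was read as 0). Of the low values, 24.5% to 47.3% were whole multiples (within 0.01) of the estimated worth of 1 read, so no count model was used and no counting interval is given.

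Of the rows, 32891 matched RefSeq symbols (GRCm38.p6). A size factor per library was taken as the median of its ratios to the mean library, using 11115 rows that exceeded 30 everywhere. Rows entered the test, 27401 in all, if 4 or more libraries had a deposited linear value of 1 or more. On log2(value + 1), limma 3.58.1 (R 4.3.3, trend and robust, group as the only term, all 8 libraries) gave differences and p-values, Benjamini-Hochberg adjusted over all rows. Fold changes of low genes are understated on this scale. The procedure was tested on simulated data. Exon lengths are unions of GENCODE M21 basic exons. P-values measure the spread between libraries, which the labels do not tie to single mice. The members and lists were chosen with earlier results of these data known. In each pathway list the text names genes past the threshold and the 2 with the smallest p, besides Nfe2l2, Keap1 and Bach1. Outside this rule it names the glutaredoxins and Sepsecs, Secisbp2, Sephs2, Trnau1ap, Pstk, Sephs1, Gpx5, Gpx7, Slc3a2 and Slc1a5. Their differences under the alternatives are not given. The 3 genes most like Slc7a11, Gpx2 and Hmox1 in profile are named as well. Alternatives were the deposited scale, quantile normalization, a pseudocount of 16, no filter or a stricter one (30 in all 8 libraries), limma without trend and robust, and libraries left out. Summing pseudogene rows was added after the data had been seen.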

Additional observations from a re-analysis of the deposited data

Results flagged for a closer look

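In each of the 20 groups of 4 values that the 10 genes give, the gap of the highest or lowest library to its nearest neighbour, divided by the group's range, was set against Dixon's 95% critical value, which chance exceeds in about 1 of 20 groups. Gclc in HFD23, at 12.16, lay below the other 3 HFD libraries, which were all at 12.36 (gap over range 0.953). Gpx1 in ND19, at 10.33, lay above the other 3 ND libraries, at 9.82 to 9.86 (gap over range 0.926).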

How the results depend on the processing

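No member and no pathway gene passed the adjusted threshold under any alternative run, and the lowest adjusted p of a member was 0.14, for Slc7a11 with the stricter filter (its range was 0.14 to 0.97). That filter left out Gpx4 and Hmox1. Of 158 member values under alternatives, 149 kept their sign. The other filters and limma without trend and robust leave each difference as it was, so their values could not turn. The same holds for the pseudogene sums, except for Gpx2 and Gpx4. The tally is therefore no measure of robustness. The count of called rows, 3 in the main analysis, was 16 on the deposited scale (13 higher, 3 lower) and 2 to 5 with 1 library left out, the 5 being without ND16. On the deposited scale the sign turned for Gclc (0.78), Gclm (0.68), Gsr (0.63), Txnrd1 (0.62), Nqo1 (0.35) and Hmox1 (0.55), and for Nfe2l2 (0.82), Mafk (0.076), Gsk3b (0.51), Slc1a4 (0.49), Abcc1 (0.57), Ugdh (0.42), Camsap3 (0.14), Krt80 (0.17), Rasgef1b (0.083), Slc6a9 (0.47), Lrrc75a (0.64) and Fam117b (0.65). On that scale the median of all rows is 0.90 in place of 0.12. Quantile normalization turned Gclc (0.008) and Nfe2l2 (0.096). Leaving out ND15.17.18 and HFD23 together turned Gclc (0.031), Gpx2 (-0.003), Nfe2l2 (0.079), Gm13199 (-0.065), Gm14164 (-0.086) and Gm7476 (-0.02). With 1 library left out Nfe2l2 ran from -0.093 to 0.04, positive without HFD23, and Bach1 from -0.025 to 0.062, negative without ND16. The cause of these turns was not tested. No paired analysis was possible because the groups share no replicate number.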
